A study of Chlorocebus sabaeus with 6 samples.

Results

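The genes described are a small panel used to place a cell between an epithelial and a mesenchymal state. The panel was set by the human Ensembl protein IDs of 8 genes (*CDH1*, *EPCAM*, *CDH2*, *VIM*, *SNAI1*, *SNAI2*, *TWIST1* and *ACTA2*), of which 5 have a row among the 51520 features of the deposited expression table: the epithelial genes *CDH1* and *EPCAM*, the mesenchymal cadherin gene *CDH2*, and the transcription factor genes *SNAI1* and *TWIST1*. *VIM*, *SNAI2* and *ACTA2*, which encode an intermediate filament protein, a zinc finger repressor and smooth muscle actin, were not analysed here. Messenger RNA was sequenced from COS-1 cells, a fibroblast-like African green monkey (Chlorocebus sabaeus) kidney line transformed with simian virus 40 sequences. The series concerns Shoc2, which scaffolds ERK1/2 signalling. The groups were 3 libraries of lentivirus-treated cells and 3 libraries of control cells that had no treatment. The labels name neither the lentivirus's cargo nor a group given an empty virus. Both groups were grown in medium with 10% serum, kept without serum for 14 h and then given 2 ng/ml epidermal growth factor (EGF) for 90 min, so no library shows the cells without EGF. Whether replicates came from separate cultures is not in the labels, and p-values therefore speak to library-to-library spread, which could be technical only.

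Epithelial cells are held in sheets by E-cadherin, the product of *CDH1*, and carry the adhesion molecule EPCAM on their lateral membranes. In the epithelial-to-mesenchymal transition, known from development, fibrosis and cancer, cells lose these proteins and gain N-cadherin, the product of *CDH2*. Transcription factors of the Snail and Twist families repress *CDH1* in human and mouse cells by binding E-box motifs, and growth factor signalling through RAS and ERK can raise their amounts. Kidney tubules are of epithelial type but arise from mesenchyme, and cells of the proximal tubule carry N-cadherin. Roles given below are those known from human and mouse.

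Levels are in FPKM, that is, fragments per length of feature and per library total, as the authors deposited them; the columns summed to between 2094230 and 2206925 FPKM, and the number of reads behind them is unknown. Each of the 5 genes was a single row that overlapped no other feature, and the chromosome of each in the table was also that of the same symbol in the RefSeq annotation of the species (5 of 5). All 5 reached a mean of 1 FPKM over the 6 libraries and were tested. In bulk RNA, fewer cells with a transcript and less transcript per cell cannot be told apart.

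Lentivirus-treated cells had less *EPCAM* and more *CDH2* RNA than control cells. *EPCAM* was 2.51-fold lower and *CDH2* 1.36-fold higher, and these were the 2 of 5 genes called by limma at a Benjamini-Hochberg adjusted p under 0.05, against 6.48% of the 28434 features tested. Of all tested features 3.59% were called lower and 2.89% higher in lentivirus-treated cells. Neither *EPCAM* nor *CDH2* stayed called in this test when any single library was left out. The genes were chosen with earlier results of these data known, so the share called is no test of the panel. *CDH1* was lower in all 3 lentivirus-treated libraries without passing that test. *SNAI1* and *TWIST1* overlapped between the groups. The median log2 change of the 5 genes was -0.019, beside -0.00097 for all tested features.

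**Figure D1:**
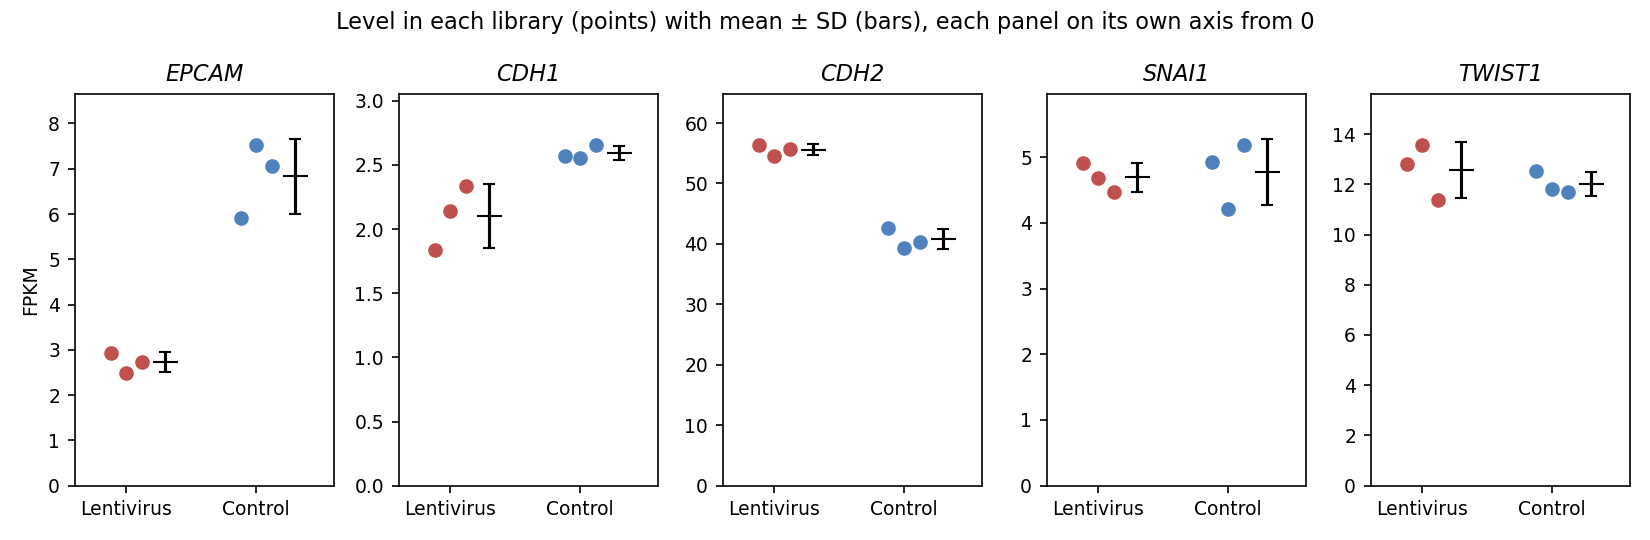
FPKM of each gene (vertical axis, from 0 and different for each panel) in each of 3 lentivirus-treated (left, red) and 3 control (right, blue) libraries; bars are mean ± SD. The groups are apart for EPCAM, CDH1 and CDH2, as for 31.6% of all tested features, and overlap for SNAI1 and TWIST1.

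Of the epithelial genes, *EPCAM* (ENSP00000263735_1, chr14:59815542-59832011 in the table's coordinates) encodes a cell surface glycoprotein of simple epithelia that takes part in adhesion and signalling. It had 2.94, 2.49 and 2.74 FPKM in the lentivirus-treated libraries, against 5.92, 7.53 and 7.06 FPKM in the control libraries. Every treated library was below every control library, and the gap between the groups was wider than the range within either. Groups without overlap were seen in 31.6% of all tested features. The means were 2.73 ± 0.223 FPKM in lentivirus-treated cells and 6.84 ± 0.828 FPKM in control cells (SD, n = 3 each). On the log2(FPKM + 1) scale, which understates the change of low genes, the difference was -1.07 (SE 0.11, 95% confidence interval -1.34 to -0.80, limma adjusted p = 0.0142). A change of that size or more, in either direction, was seen in 3.63% of tested features. The exact two-sided permutation p was 0.10, the smallest that 3 against 3 libraries allow.

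The call of *EPCAM* did not survive the loss of any 1 library in the test over all features: limma adjusted p ran from 0.0525 to 0.0727 in those 6 fits, with log2 changes of -1.16 to -1.01. Called features of the whole table numbered 48 to 118 in those fits, in place of 1842. Overlapping features were also first summed to loci, which leaves the values of these 5 genes as they are and tests 16072 loci. The limma adjusted p of *EPCAM* was then 0.00262 (19.5% of loci were called). Without 1 library it was 0.0104 to 0.0166, in fits added after seeing the data, where 1444 to 2229 loci were called.

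*CDH1* (ENSP00000261769_1, chr5:58580297-58679425) encodes E-cadherin, the calcium-dependent adhesion protein of epithelial junctions. It had 1.84, 2.14 and 2.33 FPKM in the lentivirus-treated libraries, against 2.57, 2.56 and 2.66 FPKM in the control libraries. The treated libraries were spread over a wider range than the control libraries, and the groups did not overlap, as was so for 31.6% of all tested features. The means were 2.1 ± 0.25 FPKM in lentivirus-treated cells and 2.59 ± 0.0557 FPKM in control cells (SD, n = 3 each). The log2 difference was -0.21 (95% confidence interval -0.46 to 0.031), with a limma adjusted p of 0.256. Among loci its unadjusted limma p was 0.0411, where 5529 of 16072 loci had an unadjusted p under 0.05, and its adjusted p was 0.128. The interval reached values on both sides of 0, so neither a fall nor the lack of one was shown.

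*CDH2* (ENSP00000269141_1, chr18:52426828-52651797) encodes N-cadherin, the cadherin of mesenchymal and neural cells and of part of the kidney tubule. It had 56.4, 54.6 and 55.7 FPKM in the lentivirus-treated libraries, against 42.6, 39.4 and 40.3 FPKM in the control libraries. All treated libraries lay above all control libraries, with a gap wider than the range within either group. Such a lack of overlap, in either direction, was seen in 31.6% of all tested features. The means were 55.6 ± 0.904 FPKM in lentivirus-treated cells and 40.7 ± 1.66 FPKM in control cells (SD, n = 3 each). The log2 difference was 0.44 (SE 0.045, 95% confidence interval 0.33 to 0.55, limma adjusted p = 0.0146), and 14.8% of tested features changed by as much or more in either direction. The exact permutation p was again 0.10, as it was for *CDH1*, which was not called. As with *EPCAM*, the call was lost in the test over all features without any 1 library (limma adjusted p 0.0525 to 0.0739). It was kept in the test over loci (limma adjusted p = 0.00342). In the fits over loci without 1 library, added after seeing the data, the limma adjusted p was 0.0122 to 0.0195.

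The transcription factor genes showed no change that these libraries could resolve. *SNAI1* (ENSP00000244050_1, chr2:13988895-13993701) encodes Snail, a zinc finger repressor of *CDH1*. It had 4.92, 4.69 and 4.48 FPKM in the lentivirus-treated libraries, against 4.93, 4.22 and 5.19 FPKM in the control libraries. The treated values all fell inside the control range, and the log2 difference was -0.019 (95% confidence interval -0.25 to 0.21, limma adjusted p = 0.928). Its sign turned in 3 of the 6 fits without 1 library, where the log2 change ran from -0.091 to 0.033.

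*TWIST1* (ENSP00000242261_1, chr21:39040546-39041146) encodes a basic helix-loop-helix factor of mesoderm and neural crest. It had 12.8, 13.6 and 11.4 FPKM in the lentivirus-treated libraries, against 12.5, 11.8 and 11.7 FPKM in the control libraries. The treated group held both the highest and the lowest of the 6 values. The log2 difference was 0.060 (95% confidence interval -0.14 to 0.26, limma adjusted p = 0.698); it was 0.0074 without lentivirus replicate 2 and 0.13 without lentivirus replicate 3. These intervals bound the difference at the stated confidence and do not show that the genes were equal between groups. The feature spans only 601 bases, the shortest of the 5.

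**Figure D2:**
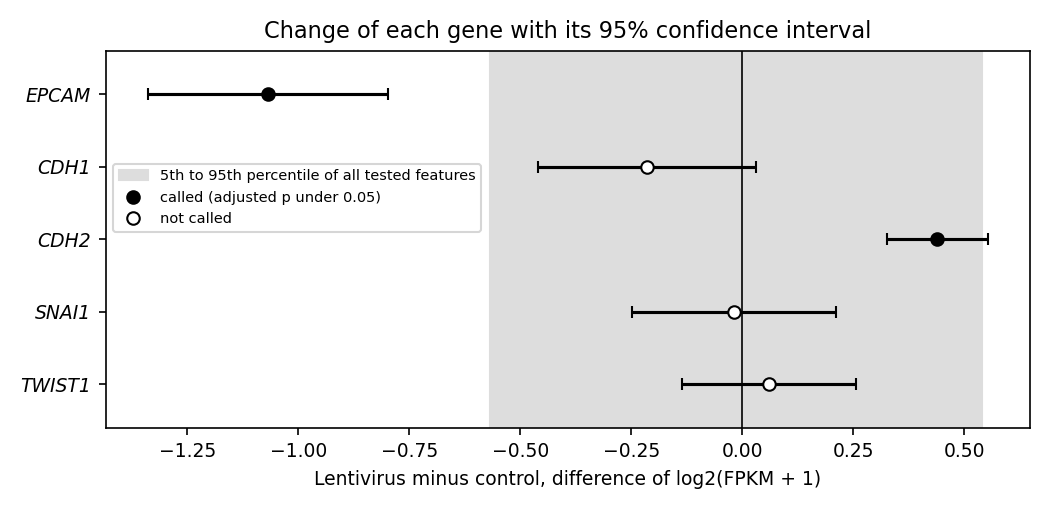
Difference of log2(FPKM + 1), lentivirus-treated minus control (horizontal axis), for the 5 genes, with 95% confidence intervals from limma; filled points were called and the grey band holds the 5th to 95th percentile of all 28434 tested features. EPCAM lies left of the band at -1.07, and CDH2, at 0.44, is inside it.

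The order of the genes by level differed between groups at 1 place. In lentivirus-treated cells it was *CDH2*, *TWIST1*, *SNAI1*, *EPCAM* and *CDH1*, from high to low. In control cells *EPCAM* stood above *SNAI1*. All 3 libraries of each group had their group's order, and no neighbours in either order overlapped in their ranges over the 3 libraries. *EPCAM* was 0.598, 0.532 and 0.612 times *SNAI1* in the lentivirus-treated libraries and 1.20, 1.79 and 1.36 times *SNAI1* in the control libraries. FPKM is per length, so levels of different genes can be set side by side, but features of different length and sequence need not be counted with the same efficiency.

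*CDH2* was the most abundant of the 5 genes in every library, at or above the level of 79.1% of tested features by its mean over the 6 libraries. *TWIST1* stood at or above 48.8%, *EPCAM* 27.3%, *SNAI1* 27.2% and *CDH1* 14.7% of tested features. The FPKM ratio of *CDH2* to *CDH1* was 30.7, 25.5 and 23.9 in the lentivirus-treated libraries and 16.6, 15.4 and 15.2 in the control libraries. N-cadherin RNA exceeded E-cadherin RNA in every library of both groups. The ratio averaged 26.7 ± 3.58 in lentivirus-treated cells and 15.7 ± 0.760 in control cells (SD, n = 3 each); as a contrast of chosen genes it was not tested. The ratio of *CDH2* to *EPCAM* was 20.5 ± 1.36 in lentivirus-treated cells and 6.04 ± 1.02 in control cells. Both were called genes that moved in opposite directions, so their ratio restates those changes and was not tested. The ratio of *EPCAM* to *CDH1*, the epithelial pair, was 1.31 ± 0.249 in lentivirus-treated cells and 2.64 ± 0.321 in control cells. That ratio carries the change of *EPCAM* again and was not tested.

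**Figure D3:**
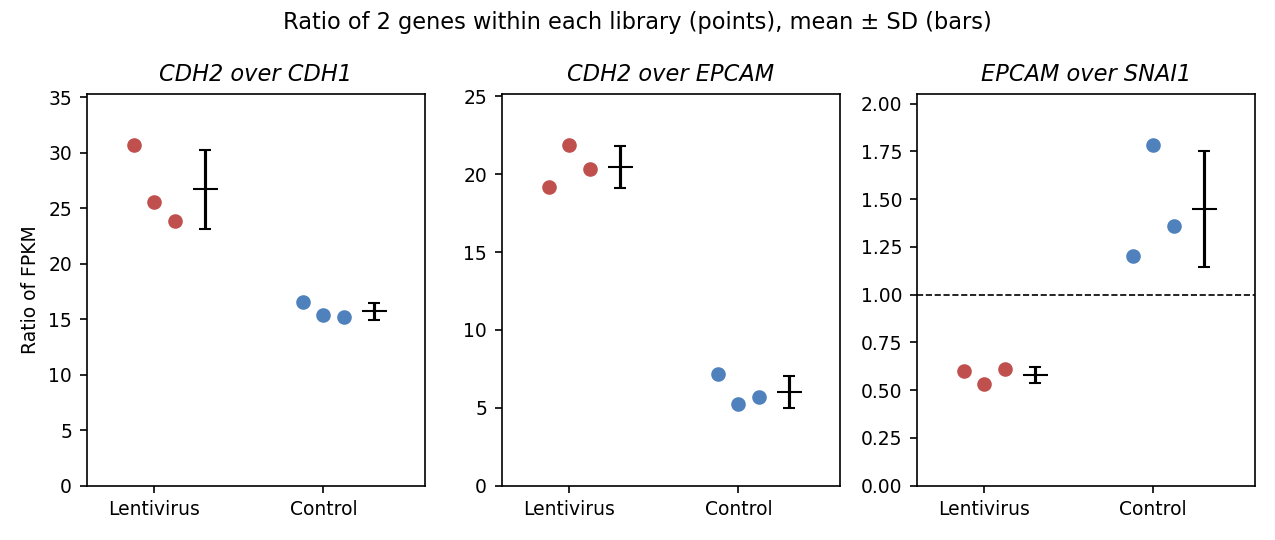
Ratio of FPKM between pairs of genes (vertical axis, from 0) within each of 3 lentivirus-treated (left, red) and 3 control (right, blue) libraries; bars are mean ± SD and the dashed line marks a ratio of 1. The groups are apart in each panel, and EPCAM exceeds SNAI1 in the control libraries but not in the lentivirus-treated ones. Both panels with EPCAM carry its change.

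The changes of the loci around each gene were set beside its own. For each gene, the 10 tested loci on either side along its chromosome were taken, a comparison added after the values were seen. These 20 loci spanned from 1.41 Mb around *CDH1* to 7.91 Mb around *EPCAM*, and distances in Mb are between midpoints. Of all 16072 tested loci, 1427 were called higher and 1707 lower. Around *CDH2* these 20 loci had a median log2 change of 0.35, beside 0.44 for *CDH2* itself; 14 of 20 were higher and 6 lower, with 12 called higher and 1 called lower, and 4 rose by at least as much as *CDH2*. The stretch was mixed: the nearest locus on one side had a log2 change of -0.049 at 2.64 Mb, and the nearest 3 on the other had log2 changes of -0.35, -0.22 and -0.22 at 0.604, 1.01 and 1.19 Mb, none of them called. The median over all 262 tested loci of chromosome 18 was 0.012, against 0.35 for the loci of this stretch (chr18:48606520-56122984). When the median of the 20 neighbours was subtracted in each library, the log2 change of *CDH2* was 0.12 and its call ended (limma adjusted p = 0.200, where 11.8% of loci were called). After that subtraction *CDH2* stood at 0.088, 0.034 and 0.055 log2 in the lentivirus-treated libraries and at 0.011, -0.13 and -0.048 log2 in the control libraries. Whether *CDH2* rose for the same reason as its neighbours was not tested.

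Around *EPCAM*, 18 of 20 neighbours were lower, over a stretch of 7.91 Mb, with a median log2 change of -0.18. Of these neighbours 6 were called lower and 0 higher, beside 1707 and 1427 of all 16072 loci. All 567 tested loci of chromosome 14 had a median log2 change of -0.10, and 30.9% of them were higher. None of the 20 fell by as much as *EPCAM*; the lowest had a log2 change of -0.51. With the neighbours' median subtracted, *EPCAM* kept its call at a log2 change of -0.89 (limma adjusted p = 0.0061). The 20 neighbours of *TWIST1* had a median of -0.16, with 18 lower, 5 called lower and 0 called higher. The median over all tested loci of chromosome 21 was 0.050. Those around *SNAI1* had a median of 0.015, with 10 higher and 10 lower. *TWIST1* was 0.20 log2 higher relative to its neighbours, which did not pass the test (limma adjusted p = 0.160).

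Around *CDH1* the neighbours had a median of 0.00059, with 10 higher and 10 lower, 1 called higher and 3 called lower. The next locus after *CDH1* (chr5:58718249-58774401) was a single feature named only by a human protein ID. The gap between them was 38.8 kb, and their midpoints were 0.116 Mb apart. This feature had 1.05, 1.44 and 1.04 FPKM in the lentivirus-treated libraries, against 2.25, 2.35 and 2.67 FPKM in the control libraries. Its treated values all lay below its control values, and its log2 change was -0.66 (limma adjusted p = 0.0429 among features and 0.0102 among loci). The locus after that, 0.216 Mb from *CDH1* between midpoints, was called in the other direction, at a log2 change of 0.68 (limma adjusted p = 0.00289 among loci). Both loci were picked with their values in view. The locus on the other side of *CDH1* had a log2 change of -0.11 (limma adjusted p = 0.444 among features).

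**Figure D4:**
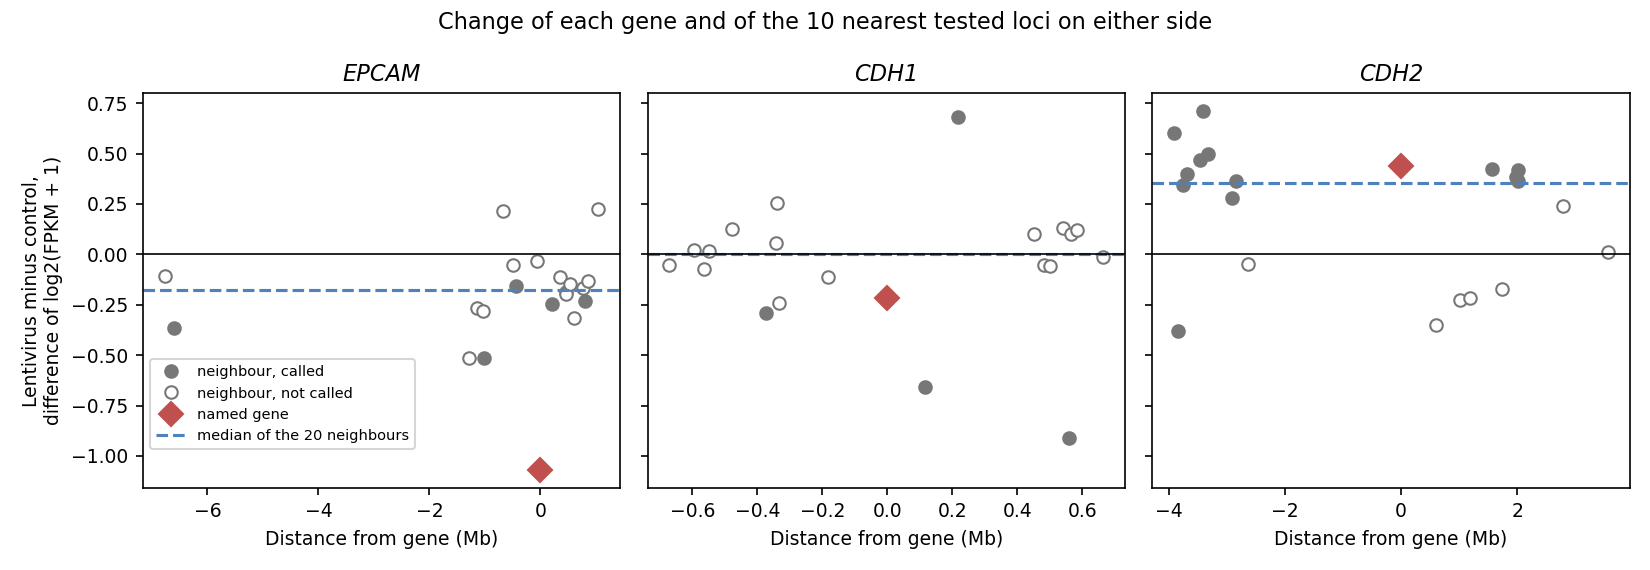
Difference of log2(FPKM + 1), lentivirus-treated minus control (vertical axis), for EPCAM, CDH1 and CDH2 (red diamonds) and the 10 nearest tested loci on either side, against distance in megabases (horizontal axis); filled grey circles were called among loci and the dashed line is the neighbours' median. CDH2 at 0.44 lies close to its neighbours' median of 0.35, while EPCAM at -1.07 lies below all of its neighbours.

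The features most like *EPCAM* across the 6 libraries were sought among 4792 lone features named by human protein IDs with a mean of at least 5 FPKM. The closest was ENSP00000413241 (chr11:46220092-46246146), with Pearson's r of 0.998 over 6 libraries, and the next was ENSP00000381549 (chr22:30197968-30402239), also at 0.998. ENSP00000413241 had 57.4 ± 0.688 FPKM in lentivirus-treated cells and 66.3 ± 1.07 FPKM in control cells, and ENSP00000381549 had 5.28 ± 0.174 FPKM in lentivirus-treated cells and 7.04 ± 0.345 FPKM in control cells (SD, n = 3 each). Their log2 changes, -0.21 and -0.36, were smaller in size than the -1.07 of *EPCAM*. With 6 libraries in 2 groups such likeness is common: 572 of the 4792 features had r over 0.9 with *EPCAM*. The table and the reference give these IDs no gene name.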

How the data were processed

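The authors deposited 1 table of FPKM values, with 1 column per library and 1 row per feature. The tools named per the submitters' processing notes are Cuffdiff, Cufflinks (2.1.1), Bowtie2 (2.1.0.0), TopHat2 (2.0.10) and CASAVA. Settings, strand, annotation and genome build: not given in the sources used here. The genes and lists were chosen with earlier results of these data known. Gene names rest on the human protein IDs; 0 table IDs matched the RefSeq table of mChlSab1.0.hap1, so a wider list of 19 epithelial and 22 mesenchymal genes was not analysed here.

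The test covered 28434 of 51520 features, those averaging 1 FPKM or more, and was made on log2(FPKM + 1) with limma 3.58.1 (eBayes with trend) in R 4.3.3, with group as the only term and Benjamini-Hochberg adjustment over all of them. A feature was called at an adjusted p under 0.05. Permutation tests used scipy 1.17.1. The fit was tested on simulated data. FPKM keeps no counts, so no counting interval is given. Overlapping features were also summed to 20565 loci. Alternatives covered pseudocount, filter, scaling, the replicate number and single libraries left out.

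Genes were named by the panel's rule; beside it, the 2 lone features with the highest Pearson r to the called gene with the smallest adjusted p.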

Additional observations from a re-analysis of the deposited data

How the results depend on the processing

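Without 1 library, the called features numbered 48 to 118 in place of 1842, and 0 of the 5 genes were called; the log2 change was -1.16 to -1.01 for *EPCAM*, 0.42 to 0.47 for *CDH2*, -0.27 to -0.15 for *CDH1*, -0.091 to 0.033 for *SNAI1* and 0.0074 to 0.13 for *TWIST1*. Over loci (3134 called), the calls numbered 1444 to 2229 without 1 library and 1774 with a replicate block, fits added after seeing the data; *EPCAM* and *CDH2* were called in each of them. In features and loci alike the sign of *SNAI1*, which was not called, turned without lentivirus replicate 3 (0.0086), control replicate 1 (0.0015) and control replicate 3 (0.033). Called features numbered 1197 with no filter, both genes included. At a filter of 5 FPKM, which leaves only *CDH2* and *TWIST1* tested, 1 of the genes was called. With the neighbours' median subtracted, an alternative added after seeing the data, 1 was called, and *CDH2* was at 0.12 log2. A replicate block in the model left 0 called features by limma (6084 at an unadjusted p under 0.05) and 0 of the 5 genes, with *EPCAM* at -1.07 and *CDH2* at 0.44 log2 and limma adjusted p of 0.121 for both. Same-numbered libraries correlated at 0.131, -0.0284 and 0.00277 in their deviations from the group means, and not every library correlated best with its own number, so the numbers were not taken as pairs. The log2 change of *EPCAM* was -1.29 with a pseudocount of 0.1, -0.61 with one of 5, and -0.86 under TPM scaling. TPM scaling lowered every value while the pseudocount of 1 stayed, and *CDH2*, far above it, was at 0.45 log2. The treated-minus-control difference of the *CDH2* to *CDH1* log2 ratio, 0.65, was 0.50 at a pseudocount of 5, and 0.58 to 0.71 without 1 library. TPM, median ratio and quantile scaling moved the median of all features to at most 0.02 log2 and changed no direction or call of the 5 genes. *VIM*, *SNAI2* and *ACTA2* gave no values, so no setting was run for them. Depth is unknown, and counting error could not be separated from other spread.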
